A study of Mus musculus with 28 samples.

Results

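A set of 10 acute phase genes was followed across 16 mouse livers and 12 macrophage cultures. They are Saa1, Saa2 and Saa3 (serum amyloid A), Orm1 and Orm2 (alpha-1-acid glycoprotein), Hp (haptoglobin), Hpx (hemopexin), Lcn2 (lipocalin 2), Crp (C-reactive protein) and Fgb (fibrinogen beta chain). The list was set by name, and all 10 members were found in each deposited table, among 17752 gene symbols for the livers and 56748 and 21959 Ensembl identifiers for the cultures. Male mice were put on a diet without methionine and choline at 8 weeks of age, and their livers were taken after 4 weeks, as a model of metabolic dysfunction-associated steatohepatitis. The liver groups (n = 4 each) were Lyz2-Cre controls, a macrophage knockout of NFATc3 (NFATc3-MKO), a macrophage knockout of ASK1 (ASK1-MKO) and a double knockout of both (MDKO). NFATc3 is a transcription factor switched on by calcineurin, and ASK1, the product of Map3k5, is a stress-activated kinase. Lyz2-driven Cre acts in myeloid cells, so hepatocytes, which make most of these proteins, were not the labelled target. The cultures are labelled as bone marrow-derived macrophages, grown for 7 days with 30% L929-conditioned medium and not fed the diet. They are NFATc3-MKI and ASK1-MKI (macrophage knock-ins) with a separate set of Lyz2-Cre controls for each (n = 3 per group). No label says which cultures came from separate mice, so p-values measure the spread between these libraries, which may be technical.

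In the acute phase response, cytokines such as interleukin-6, interleukin-1 and tumor necrosis factor reach hepatocytes and change the output of plasma proteins within hours. Interleukin-6 acts through STAT3, interleukin-1 through NF-kB, and C/EBP factors act on many of the same promoters. Serum amyloid A rides on high-density lipoprotein, orosomucoid (the Orm genes) binds drugs and dampens immune cells, haptoglobin and hemopexin capture free hemoglobin and heme, and lipocalin 2 withholds iron from bacteria by binding their siderophores. Crp, the main human marker of the response, is a weak responder in the mouse. Macrophages can make Saa3, and both macrophages and developing neutrophils can make Lcn2.

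MDKO replicate 3 was the shallowest liver, with 8912117 counts, and the other 15 held 20601168 to 30834547. Cultures had 7693464 to 9398163 counts (NFATc3-MKI with its controls) or 16051951 to 18728508 (ASK1-MKI with its controls). Total levels of the targeted genes mostly did not follow the labels. In livers labelled ASK1-MKO, Map3k5 stood at 46.3 ± 6.12 CPM (the count scaled to library size, SD, n = 4) against 30.9 ± 2.21 in Lyz2-Cre livers. It was called higher there (log2 difference 0.58, edgeR adjusted p = 0.0262), against the direction of the label. In livers labelled MDKO, Nfatc3 (36.6 ± 4.60 against 36.3 ± 3.94) and Map3k5 (30.6 ± 2.15) were within the spread of the controls. In livers labelled NFATc3-MKO, Nfatc3 was lower, at 28.3 ± 5.78 CPM, but was not called (−0.36, edgeR adjusted p = 0.120). In the knock-ins the named gene was slightly lower, Nfatc3 at 81.1 ± 8.04 against 97.5 ± 7.33 CPM and Map3k5 at 26.9 ± 0.349 against 30.1 ± 0.174. Both were called lower (edgeR adjusted p = 0.0371 and 0.0266). Whole liver also holds RNA of cells outside the Cre's target, and gene totals do not show how an allele was changed. These levels therefore cannot check the labels. Livers labelled Lyz2-Cre and MDKO with the same replicate number were closer to each other than livers of different numbers. The SD of the log2 ratio over genes was 0.136 to 0.186 in the 4 same-numbered pairs, 0.222 to 0.49 in the other 12 pairs across these groups, and 0.234 to 0.457 within either group. The cultures of the NFATc3-MKI set, controls included, lacked some defining macrophage transcripts: C1qa and C1qb were at 0 in all 6, Mrc1 and Mertk were at most 0.133 CPM, and Adgre1 was 30.0 to 36.3 CPM. In the ASK1-MKI set the same genes were at 437 CPM or more (C1qa), 65.4 or more (Mrc1), 204 or more (Mertk) and 2674 or more (Adgre1). Other macrophage markers were present in the NFATc3-MKI set, with Cd68 at 706 to 1033 CPM, Csf1r at 274 to 407 and Lyz2 at 363 to 503. In the ASK1-MKI set these were at 1680 CPM or more (Cd68), 1319 or more (Csf1r) and 26581 or more (Lyz2). Hepatocyte markers summed to at most 0.970 CPM in any culture.

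The genes lie at several places in the mouse genome (mm10). The 3 serum amyloid A genes share a cluster on chromosome 7, with Saa3 at chr7:46711998-46715700 (minus strand), Saa1 at chr7:46740497-46742980 (minus) and Saa2 at chr7:46751790-46754313 (plus), and Hpx lies on the same chromosome at chr7:105591613-105600137 (minus). Orm1 (chr4:63344560-63348163) and Orm2 (chr4:63362449-63365878) are neighbours on the plus strand. Hp lies at chr8:109575128-109579172 (minus), Lcn2 at chr2:32384633-32388252 (minus), Crp at chr1:172698055-172833031 (plus) and Fgb at chr3:83040141-83049863 (minus).

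The 10 genes fell into a steady and a variable set in the livers. Hpx, Hp and Fgb were high in every liver and differed at most 1.72-fold between the lowest and the highest of the 16, at 3554 to 5854, 1861 to 3196 and 2183 to 3380 CPM. Crp ranged 2.96-fold (164 to 487 CPM) and Orm1 3.33-fold (283 to 940). Saa3 ranged 8.83-fold (2.21 to 19.5 CPM), Saa1 10.1-fold (6.59 to 66.7), Saa2 16.5-fold (1.34 to 22.2), Lcn2 19.3-fold (14.7 to 285) and Orm2 31.4-fold (4.70 to 147). After the genotype groups were fitted, the remaining spread between livers (biological coefficient of variation) was 0.617 to 0.772 for Saa1, Saa2, Saa3, Orm2 and Lcn2, against a median of 0.181 over 13309 genes. Between 99.1% and 99.6% of genes varied less than each of these 5, so differences between groups have wide intervals for them. The spread was 0.253 for Orm1, 0.190 for Crp, 0.174 for Hp, 0.165 for Hpx and 0.140 for Fgb.

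Levels of different genes were compared per kilobase of transcript, using the length of the first GENCODE transcript of each gene. In Lyz2-Cre livers the order was Hpx (2930 ± 284 CPM per kilobase), Hp (1979 ± 265), Fgb (711 ± 36.7), Orm1 (578 ± 135), Crp (158 ± 25.9), Lcn2 (109 ± 135), Orm2 (55.5 ± 53.9), Saa1 (44.0 ± 40.9), Saa2 (14.6 ± 14.9) and Saa3 (11.6 ± 11.5). The ranges of Hpx and Hp, Hp and Fgb, and Orm1 and Crp did not overlap between neighbours, whereas Fgb and Orm1, and each later neighbouring pair from Crp to Saa3, did. Hpx was first and Hp second in all 4 liver groups. The members together took 0.890% to 1.37% of all counts in a liver.

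Lcn2 showed the variable pattern most plainly. In Lyz2-Cre replicates 1 to 4 it stood at 25.4, 284.7, 49.95 and 38.2 CPM, in NFATc3-MKO at 42.6, 242.6, 274.9 and 185.5, in ASK1-MKO at 23.2, 18.8, 14.7 and 19.5, and in MDKO at 21.6, 264.8, 50.8 and 26.2. The high livers were 5: Lyz2-Cre replicate 2, MDKO replicate 2 and NFATc3-MKO replicates 2, 3 and 4. No ASK1-MKO liver was among them. Orm2 separated the same 5 livers, with 17.5, 105.5, 24.8 and 24.5 CPM in Lyz2-Cre, 27.2, 123.0, 147.4 and 109.9 in NFATc3-MKO, 14.2, 4.70, 6.08 and 5.29 in ASK1-MKO and 11.4, 129.8, 22.6 and 17.7 in MDKO. For both genes the lowest of these 5 was at least 105.5 CPM, and the other 11 livers were at 50.8 CPM or lower.

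The 3 serum amyloid A genes followed the same livers at lower levels. Saa1 stood at 9.73, 63.8, 16.0 and 17.7 CPM in Lyz2-Cre, 8.98, 48.6, 26.3 and 38.6 in NFATc3-MKO, 25.7, 10.5, 6.59 and 21.4 in ASK1-MKO and 6.98, 66.7, 10.8 and 11.2 in MDKO. Unlike Lcn2 and Orm2, it was not uniformly low in ASK1-MKO, where replicates 1 and 4 were above 3 of the 4 Lyz2-Cre livers. Saa2, its close copy, stood at 3.10, 22.2, 3.46 and 6.55 CPM in Lyz2-Cre, 2.32, 16.5, 9.77 and 15.8 in NFATc3-MKO, 6.47, 1.97, 1.80 and 5.96 in ASK1-MKO and 1.34, 21.9, 2.65 and 3.95 in MDKO. Saa3 stood at 3.46, 16.0, 3.23 and 3.15 CPM in Lyz2-Cre, 3.64, 19.5, 12.3 and 8.23 in NFATc3-MKO, 6.92, 2.57, 2.55 and 4.27 in ASK1-MKO and 2.27, 12.4, 2.76 and 2.21 in MDKO. Saa2 held 18.8 to 41.0 counts per 100 counts of Saa1 across the 16 livers. Transcripts of Saa1 and Saa2 were identical at 93.92% of aligned bases, so reads may be split between them and the ratio is uncertain.

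Orm1 and Orm2 differed in how far they moved. Orm1 stood at 359, 590, 463 and 378 CPM in Lyz2-Cre, 467, 556, 940 and 649 in NFATc3-MKO, 332.9, 309, 332 and 283 in ASK1-MKO and 309, 716, 464 and 319 in MDKO. Orm2 held 1.51 to 4.25 counts per 100 counts of Orm1 in ASK1-MKO livers, 4.88 to 6.45 in Lyz2-Cre replicates 1, 3 and 4 and 17.9 in replicate 2, and 15.7 to 22.1 in NFATc3-MKO replicates 2, 3 and 4. Their transcripts were identical at 90.97% of aligned bases, so this ratio is uncertain too. Crp went the other way, at 329, 243, 230 and 273 CPM in Lyz2-Cre, 215, 194, 164 and 214 in NFATc3-MKO, 456, 356, 241 and 487 in ASK1-MKO and 303, 287, 229 and 265 in MDKO. Every NFATc3-MKO liver was below every liver of the other 3 groups for Crp.

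**Figure D1:**
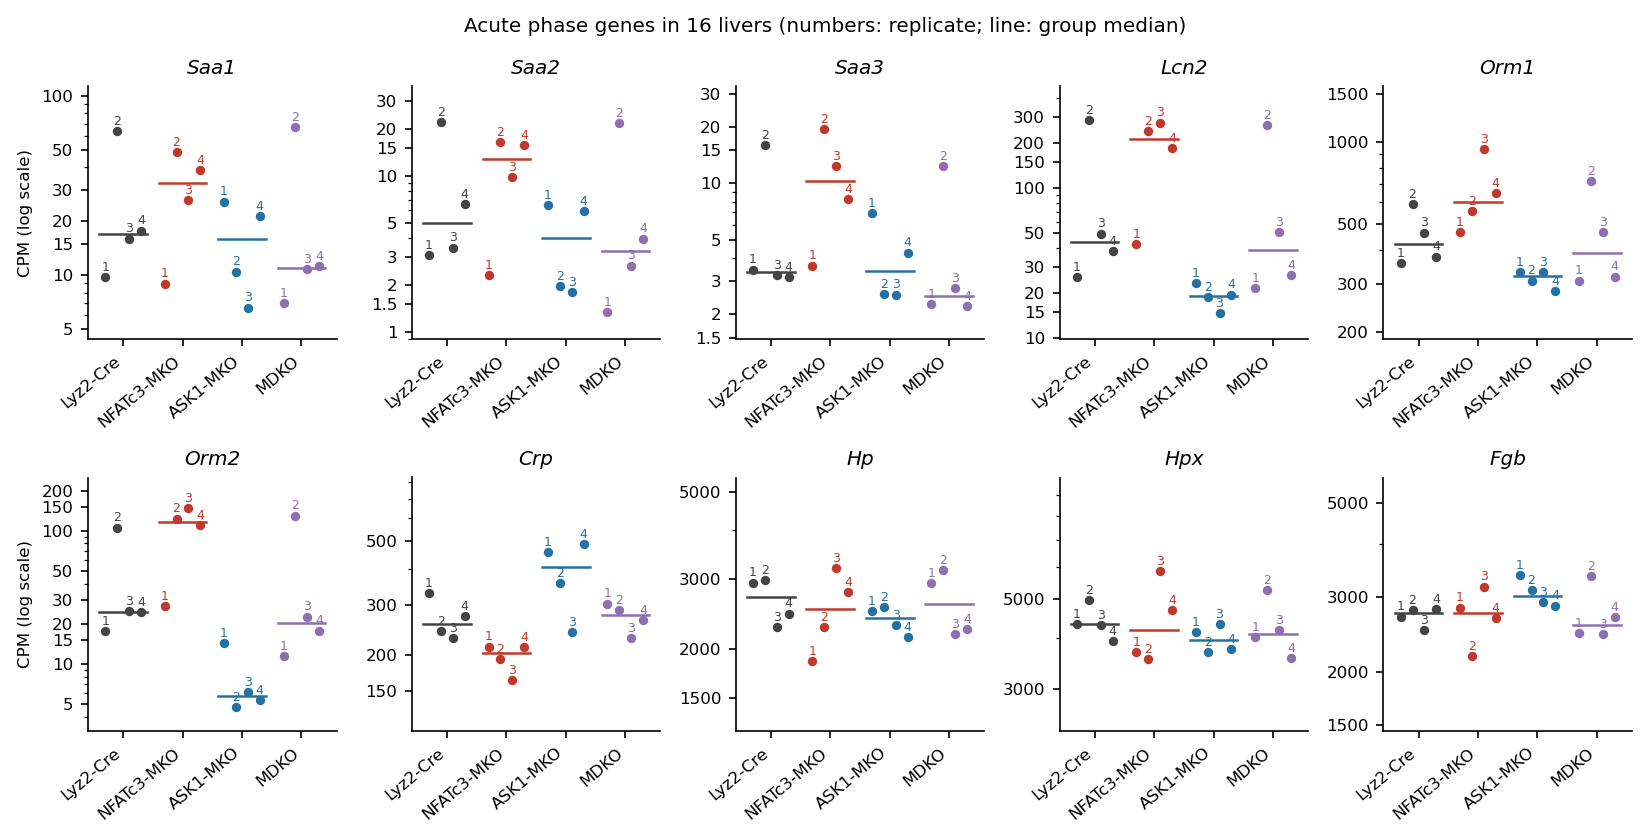
CPM of the 10 genes in each of the 16 livers, on log axes, by labelled group; points carry the replicate number and lines are group medians. In the panels of Saa3, Lcn2 and Orm2, Lyz2-Cre replicate 2, MDKO replicate 2 and NFATc3-MKO replicates 2, 3 and 4 stand above the other livers, while Hp, Hpx and Fgb differ little.

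Across the 16 livers the variable members moved together. On log2 CPM, Pearson's r was 0.98 between Saa1 and Saa2, 0.97 between Lcn2 and Orm2, 0.93 between Lcn2 and Orm1 and 0.88 between Lcn2 and Saa3. It was −0.72 between Crp and Orm1, −0.67 between Crp and Orm2 and −0.62 between Crp and Lcn2, and −0.13 to −0.31 between Crp and the 3 Saa genes. Fgb had an r of −0.08 to 0.15 with the Saa genes, Orm1, Orm2 and Lcn2. These values describe 16 libraries that share genotype groups and a few high livers. Among genes outside the list, those most like Lcn2 over the 16 livers were Slamf9 (r = 0.94), Krt20 (0.92) and Cyb561 (0.92). Orm2 was most like Akr1b1 (0.93), Krt20 (0.93) and Rasl10b (0.93), and Orm1 most like Cyb561 (0.92) and Nudt18 (0.90). The Saa genes had other neighbours, many of them innate immune genes: Acod1, which makes itaconate (r = 0.93 with Saa3 and 0.88 with Saa2), the lectin receptor gene Clec4e (0.92 with Saa3), the neutrophil chemokine gene Cxcl2 (0.88 with Saa1) and Tlr2 (0.87 with Saa1 and 0.89 with Saa2). Crp was most like Foxo4 (0.94), Sult2a8 (0.92) and Elovl2 (0.91), and Fgb most like Fgg, the gamma chain of the same fibrinogen molecule (0.82). Several of these neighbours were low, which makes their r less certain. Their means over the 16 livers were 0.486 CPM (Cxcl2), 0.714 (Rasl10b), 0.912 (Acod1), 1.07 (Krt20) and 1.36 (Clec4e).

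The promoters of the members that moved together are shown, with that of Crp, which moved against some of them, and they come from the RefSeq table for GRCm38.p6, which held 8 of the 10 members. Hp and Orm1 are named only. Each run is the 250 bases before the start that RefSeq annotates, on the gene's strand. These starts can differ from the gene positions given above. By those positions the Lcn2 window lies inside its gene, and the windows of Saa2, Saa3 and Crp reach into theirs. The matches found depend on the start used. Capitals mark matches on either strand to C/EBP (TTNNGNAA), NF-kB (GGGNNNNNCC) or STAT3 (TTCNNNGAA) letters.
Saa1: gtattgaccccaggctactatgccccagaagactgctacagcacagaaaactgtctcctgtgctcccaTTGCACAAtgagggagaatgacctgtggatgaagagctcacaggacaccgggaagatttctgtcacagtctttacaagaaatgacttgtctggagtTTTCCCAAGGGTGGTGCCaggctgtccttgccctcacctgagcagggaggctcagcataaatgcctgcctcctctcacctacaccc
Saa2: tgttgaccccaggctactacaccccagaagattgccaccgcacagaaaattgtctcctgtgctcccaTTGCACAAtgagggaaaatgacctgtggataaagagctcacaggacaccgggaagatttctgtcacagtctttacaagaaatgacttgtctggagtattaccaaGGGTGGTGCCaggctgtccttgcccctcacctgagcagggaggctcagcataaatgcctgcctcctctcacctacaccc
Saa3: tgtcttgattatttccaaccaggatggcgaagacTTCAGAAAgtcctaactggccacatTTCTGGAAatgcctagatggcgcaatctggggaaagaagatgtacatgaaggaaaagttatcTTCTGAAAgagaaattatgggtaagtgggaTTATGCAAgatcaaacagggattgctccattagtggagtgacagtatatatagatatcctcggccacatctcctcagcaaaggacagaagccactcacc
Lcn2: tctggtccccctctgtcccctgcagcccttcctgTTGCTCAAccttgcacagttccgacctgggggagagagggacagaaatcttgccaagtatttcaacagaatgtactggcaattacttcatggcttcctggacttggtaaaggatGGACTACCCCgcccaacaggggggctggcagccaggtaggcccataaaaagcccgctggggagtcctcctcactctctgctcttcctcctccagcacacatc
Orm2: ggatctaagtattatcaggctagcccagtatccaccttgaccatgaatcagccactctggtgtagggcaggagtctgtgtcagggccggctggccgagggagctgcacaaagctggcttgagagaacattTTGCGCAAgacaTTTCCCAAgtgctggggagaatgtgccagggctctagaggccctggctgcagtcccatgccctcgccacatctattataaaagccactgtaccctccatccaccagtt
Crp: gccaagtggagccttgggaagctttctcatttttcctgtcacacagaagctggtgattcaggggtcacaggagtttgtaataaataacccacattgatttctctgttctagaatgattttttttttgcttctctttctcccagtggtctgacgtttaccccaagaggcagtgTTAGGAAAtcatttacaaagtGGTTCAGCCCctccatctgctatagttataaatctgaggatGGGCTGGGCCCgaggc
The windows are chr7:46742981-46743230 (Saa1, minus strand), chr7:46751583-46751832 (Saa2, plus), chr7:46715677-46715926 (Saa3, minus), chr2:32387740-32387989 (Lcn2, minus), chr4:63362199-63362448 (Orm2, plus) and chr1:172697806-172698055 (Crp, plus).

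Saa1 and Saa2 are divergent neighbours on chromosome 7, and their windows were identical at 238 of 251 aligned columns. Both held the C/EBP match TTGCACAA and the NF-kB match GGGTGGTGCC. A second C/EBP match, TTTCCCAA, lay directly before the NF-kB match in Saa1 and was absent from Saa2. Saa3 held 4 C/EBP matches and no NF-kB match in this window. Orm2 held 2 C/EBP matches, TTGCGCAA and TTTCCCAA. Lcn2 held 1 of each, and Crp held 1 C/EBP match and 3 NF-kB matches, of which 2 overlap each other. All 8 members in the table held a C/EBP match, against 36.85% of 32851 promoters of the same length. An NF-kB match was found in Saa1, Saa2, Lcn2 and Crp, against 45.8% of all promoters, and a STAT3 match in Fgb alone of the 8, against 7.02%. No C/EBP match overlapped an NF-kB match. A match describes letters, not binding.

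The first comparison set livers labelled NFATc3-MKO against Lyz2-Cre. None of the 10 members passed edgeR's quasi-likelihood test at an adjusted p under 0.05, where 8.45% of 13309 genes did. Orm1 and Crp had an unadjusted p under 0.05, and DESeq2 also called 0 members. Lcn2 was 186.4 ± 103 against 99.6 ± 124 CPM (SD, n = 4 each; log2 difference 0.90 ± 0.82 SE, adjusted p = 0.507), Orm2 101.8 ± 52.2 against 43.0 ± 41.7 (1.24 ± 0.75, adjusted p = 0.300) and Orm1 653 ± 206 against 448 ± 105 (0.54 ± 0.25, adjusted p = 0.181). The groups overlapped in all members but Crp (197 ± 23.5 against 269 ± 44.0 CPM, −0.45 ± 0.19, adjusted p = 0.132), while 12.8% of all genes had groups that did not overlap. The median log2 difference was 0.26 over the members and 0.03 over all genes tested. With Lyz2-Cre replicate 2 and MDKO replicate 2 both left out, chosen after seeing the data, 4 members were called higher: Lcn2 (log2 difference 2.31, edgeR adjusted p = 0.0123), Orm2 (2.20, 0.0157), Saa3 (1.74, 0.0310) and Orm1 (0.71, 0.0457). Both livers were high in several of these members. Leaving out a high control raises the difference and leaving out both narrows the spread, so these calls are not independent support. In that fit 1188 of 13428 genes were called. Without Lyz2-Cre replicate 2 alone no member was called.

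In the same comparison other genes of the response moved in both directions. Of 27 further positive acute phase genes tested 3 rose and 2 fell. The 3 include the receptor gene Il1r1, which is also counted among the cytokine receptors below. Orm3, the third orosomucoid gene, rose from 0.633 ± 0.242 to 2.28 ± 0.980 CPM (1.84 ± 0.45, edgeR adjusted p = 0.0223). Serpina3n, a protease inhibitor gene often induced in inflammation, fell from 350 ± 20.3 to 249 ± 48.4 CPM (−0.49 ± 0.14, 0.0391). Of 16 signalling genes Socs3, a feedback inhibitor of STAT3 signalling, rose from 3.52 ± 1.24 to 7.48 ± 1.32 CPM (1.08 ± 0.27, 0.0232) and the kinase gene Irak4 fell. Of 10 transcription factors Hnf4a fell (472 ± 15.3 to 322 ± 33.6 CPM, −0.55 ± 0.11, 0.00755). Of 13 receptor and clearance genes Cd163, which takes up haptoglobin-hemoglobin complexes, fell from 17.7 ± 7.39 to 6.12 ± 4.14 CPM (−1.52 ± 0.44, 0.0429), and so did Fcgr2b. Of 10 cytokine receptors 2 rose, Il1r1 (0.93 ± 0.25) and Tnfrsf1a (0.33 ± 0.10), and 1 fell, Il1rap (−0.59 ± 0.18). None of the 5 cytokine genes tested passed, of which Ctf1 was the most abundant at 3.39 ± 1.29 against 3.67 ± 0.92 CPM, and of 14 negative acute phase genes 1 rose, Igfbp3 (0.92 ± 0.23).

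Markers of other cells differed between livers, some of them along with the members. The 11 neutrophil markers summed to 14.3 CPM in Lyz2-Cre replicate 2 and 4.38 to 5.62 in the other Lyz2-Cre livers, to 10.9 in MDKO replicate 2 and 3.38 to 4.87 in the other MDKO livers, to 8.89, 47.5, 24.1 and 16.1 in NFATc3-MKO and to 3.52 to 5.29 in ASK1-MKO. S100a8, S100a9 and Csf3r carried most of the sum, whereas Elane, Mpo, Camp, Ltf and Ngp were at most 0.227 CPM in every liver. The 10 macrophage markers summed to 523 CPM in Lyz2-Cre replicate 2 (249 to 360 in the others), to 491 in MDKO replicate 2 (211 to 432) and to 264, 895, 345 and 430 in NFATc3-MKO, so that NFATc3-MKO replicate 3 was below Lyz2-Cre replicate 3 (360). The 12 hepatocyte markers summed to 116575 CPM in Lyz2-Cre replicate 2 (142385 to 151393 in the others) and to 131644, 86188, 104174 and 124900 in NFATc3-MKO replicates 1 to 4. In ASK1-MKO they summed to 124624 to 144714, and MDKO replicate 2 (138061) was within the range of its group (136995 to 145990). Cholangiocyte, stellate cell and lymphocyte lists stood apart in NFATc3-MKO replicates 2, 3 and 4. Cholangiocyte markers summed to 354, 401 and 324 CPM there, against 95.7 in replicate 1 and 43.7 to 192 in the other groups. By the test 2 of 6 were higher in NFATc3-MKO than in Lyz2-Cre. This list includes Spp1, which alone made up the sum of 16957 to 21526 CPM in NFATc3-MKI cultures. The sum is thus not particular to cholangiocytes, and the share of Spp1 in the liver sums was not examined. Stellate cell and fibroblast markers summed to 1061, 720 and 811 CPM, against 413 in replicate 1 and 474 to 673 in the other groups. T and B cell markers summed to 12.6, 14.6 and 14.2 CPM, against 7.31 and 3.13 to 7.54. Lyz2-Cre replicate 2 was the highest of its group in cholangiocyte markers (130 against 63.8 to 80.9 CPM) and stellate cell markers (673 against 545 to 564). MDKO replicate 2 was the lowest of its group in both (63.7 and 514 CPM). In T and B cell markers both lay within the range of their groups (5.35 and 5.65 CPM). Kupffer cell markers were lower in NFATc3-MKO than in Lyz2-Cre, 2 of 6 by the test, at 174 to 227 against 199 to 401 CPM, and were highest in Lyz2-Cre replicate 2 (401) and MDKO replicate 2 (486) within their groups. The part of these cells in the members' levels was not tested, and in whole liver a change in cell number and one in RNA per cell cannot be told apart.

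Livers labelled ASK1-MKO had the lowest mean Lcn2 and Orm2, but the differences from Lyz2-Cre missed the threshold. No member was called (8.46% of all genes were), 3 had an unadjusted p under 0.05, and DESeq2 called 2. Orm2 was 7.56 ± 4.45 against 43.0 ± 41.7 CPM (−2.51 ± 0.80 SE, edgeR adjusted p = 0.0621) and Lcn2 19.1 ± 3.47 against 99.6 ± 124 (−2.39 ± 0.86, 0.0998). Without Lyz2-Cre replicate 2 and MDKO replicate 2 these were −1.54 (0.0570) and −0.97 (0.213). Crp was 385 ± 111 against 269 ± 44.0 CPM (0.52 ± 0.19, 0.0937). It passed with DESeq2 (0.53, DESeq2 adjusted p = 0.04985) and voom (0.64, limma adjusted p = 0.0070), with the replicate number as a block, and without ASK1-MKO replicate 3 (0.71, edgeR adjusted p = 0.0140). Orm2 passed with DESeq2 (−2.49, adjusted p = 0.0214). The groups did not overlap for Orm1, Orm2, Lcn2 and Fgb, 4 of 10 members, where 18.2% of all genes did not. Fgb was higher in each ASK1-MKO liver, at 2867 to 3380 against 2513 to 2817 CPM (0.18 ± 0.13, edgeR adjusted p = 0.445). The median log2 difference of the members was −0.59, against −0.03 over all genes, and it was −0.07 for the members without Lyz2-Cre replicate 2 and MDKO replicate 2 (Saa1 went from −0.75 to 0.17).

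Among the other lists, genes that passed in this comparison mostly rose. Lbp, the lipopolysaccharide-binding protein, rose from 47.7 ± 11.8 to 76.8 ± 12.8 CPM (0.69 ± 0.17, edgeR adjusted p = 0.0181), 1 of 2 further positive genes that passed of 27. Serpina7, which carries thyroid hormone and is a negative acute phase gene, rose from 78.3 ± 15.5 to 163 ± 19.7 CPM (1.06 ± 0.18, 0.00177), 1 of 14. Socs3 rose from 3.52 ± 1.24 to 7.86 ± 2.12 CPM (1.15 ± 0.27, 0.0134), 1 of 16 signalling genes, Onecut1 by 1.42 ± 0.34 (0.0152), 1 of 10 transcription factors, and Lifr by 0.48 ± 0.14 (0.0382), 1 of 10 cytokine receptors. Hmox1, which breaks down the heme that hemopexin delivers, fell from 38.2 ± 10.1 to 16.4 ± 3.08 CPM (−1.22 ± 0.27, 0.0110), 1 of 13 receptor and clearance genes. None of 5 cytokine genes passed. Socs3 was called higher in the livers labelled NFATc3-MKO and in those labelled ASK1-MKO, which share their 4 controls.

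Among the liver comparisons, the main edgeR fit, with all livers and no block, called members only between the groups labelled NFATc3-MKO and ASK1-MKO. Of 10 members 3 were higher in NFATc3-MKO than in ASK1-MKO livers and 1 was lower, where 12.8% of all genes were called. Orm2 was 101.8 ± 52.2 against 7.56 ± 4.45 CPM (3.75 ± 0.83 SE, edgeR adjusted p = 0.00943), Lcn2 186.4 ± 103 against 19.1 ± 3.47 (3.29 ± 0.89, 0.0260), Orm1 653 ± 206 against 314 ± 23.9 (1.05 ± 0.26, 0.0142) and Crp 197 ± 23.5 against 385 ± 111 (−0.97 ± 0.19, 0.00346). In all 4 the groups did not overlap, as in 14.6% of all genes. Even NFATc3-MKO replicate 1, low among its group at 42.6 CPM of Lcn2 and 27.2 of Orm2, was above every ASK1-MKO liver. Saa3 (1.42 ± 0.65, adjusted p = 0.153), Saa2 (1.46 ± 0.84, 0.250) and Saa1 (0.93 ± 0.74, 0.405) overlapped between the groups and were not called, nor were Hp (0.09 ± 0.17), Hpx (0.16 ± 0.16) and Fgb (−0.18 ± 0.13). The median was 0.99 over the members and 0.02 over all genes.

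Orm2 and Crp kept their calls whichever library of these 2 groups was left out, with a log2 difference of 3.52 to 4.24 for Orm2. The call of Lcn2 was lost with no filter on low counts (edgeR adjusted p = 0.0640), without NFATc3-MKO replicate 2 (0.0597) or 3 (0.0742), and without any 1 of the ASK1-MKO replicates 1 to 4 (0.0586, 0.0742, 0.0674 and 0.0611), though its log2 difference stayed between 3.04 and 3.61. That of Orm1 was lost without NFATc3-MKO replicate 3 (0.82, 0.0535). Fitted with only these 2 groups, the same number of members, 4, was called. In this contrast 4 of 5 neutrophil markers tested, 3 of 6 cholangiocyte markers and 1 of 10 macrophage markers were higher and 2 of 12 hepatocyte markers lower, and their part was not tested.

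The wider response did not shift as a block between these 2 groups. Orm3, at 2.28 ± 0.980 against 0.247 ± 0.0926 CPM (3.19 ± 0.49, edgeR adjusted p = 0.000691), was 1 of 2 further positive genes that were higher, and 5 were lower, of 27. Those lower included Serpina3k (1019 ± 160 against 1824 ± 274 CPM, −0.84 ± 0.14), plasminogen (Plg, −0.73 ± 0.13) and Lbp (40.4 ± 1.92 against 76.8 ± 12.8, −0.93 ± 0.17). Of 10 transcription factors 4 were lower and none higher: Hnf4a (−0.67 ± 0.11), Onecut1 (−1.74 ± 0.34), Foxo1 (−0.95 ± 0.25) and the glucocorticoid receptor gene Nr3c1 (−0.66 ± 0.21), a receptor that boosts several acute phase genes. Of 10 cytokine receptors Il1rap (−1.09 ± 0.18) and Lifr (−0.80 ± 0.14) were lower, both subunits of receptors that signal to these promoters. Of 5 cytokine genes Clcf1 was higher (1.92 ± 0.837 against 0.727 ± 0.177 CPM, 1.39 ± 0.37, 0.0213), Irak1 was lower (1 of 16 signalling genes), and Hmox1 was higher (1.17 ± 0.27, 1 of 13 receptor and clearance genes). Of 14 negative acute phase genes Serpina7 was lower (−0.82 ± 0.18) and Igfbp3 higher (1.00 ± 0.23).

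**Figure D2:**
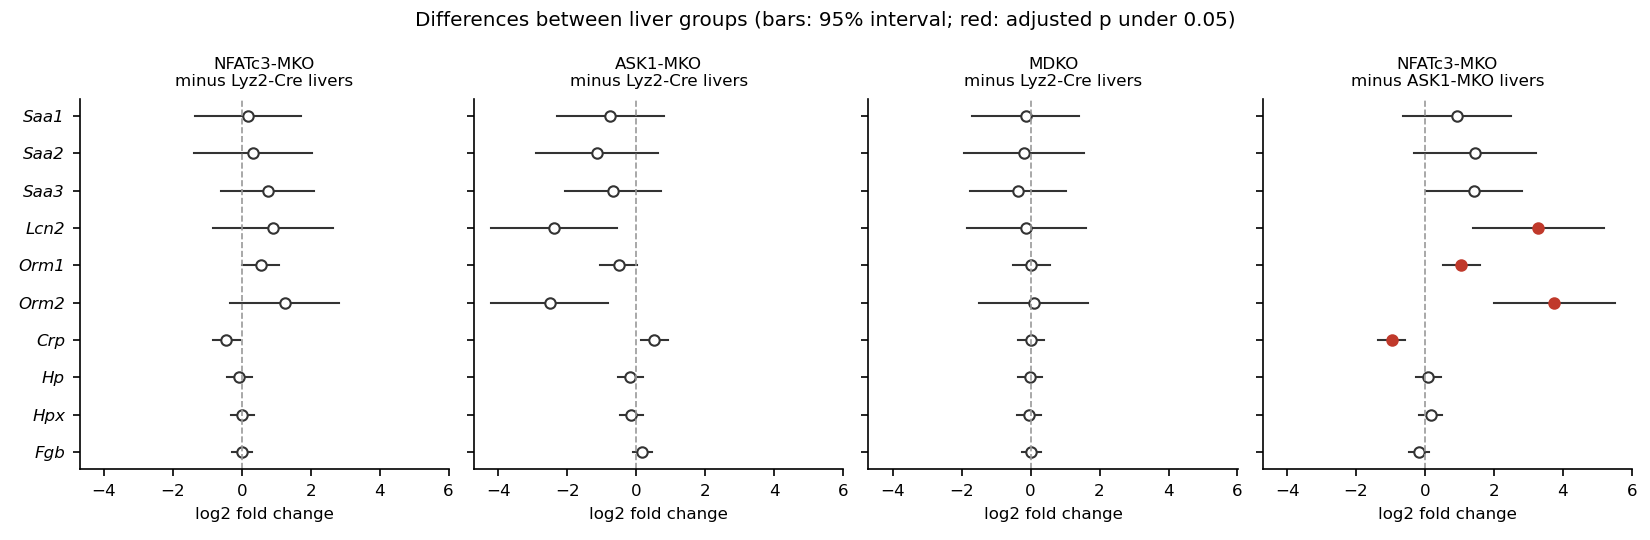
Log2 fold changes of the 10 genes in 4 comparisons of liver groups (points) with 95% intervals (bars); red points passed edgeR's test at an adjusted p under 0.05. Only the comparison of NFATc3-MKO with ASK1-MKO has red points, for Lcn2, Orm1, Orm2 and Crp, and the intervals of the Saa genes, Lcn2 and Orm2 are the widest in each panel.

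Between livers labelled MDKO and Lyz2-Cre no member passed the test. In the fit without pairing, no member was called, none had an unadjusted p under 0.05 and DESeq2 called none, and 0% of all genes were called. Only 35 of 13309 genes had an unadjusted edgeR p under 0.05, far fewer than that threshold passes by chance. The fit ignores the likeness of same-numbered livers, so its p-values may be too large and its intervals too wide. The lack of calls is therefore weak evidence of no difference. The log2 differences ran from −0.36 ± 0.66 (Saa3) to 0.08 ± 0.74 (Orm2), and the 95% interval for Lcn2, −1.86 to 1.60, spans changes of either sign. For Hp, Hpx, Crp and Fgb the intervals lay within −0.38 and 0.40. No member had groups that did not overlap, against 0.458% of all genes.

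What these 2 groups shared was the profile from replicate to replicate. For Lcn2 the same-numbered pairs (Lyz2-Cre, then MDKO) were 25.4 and 21.6, 284.7 and 264.8, 49.95 and 50.8, and 38.2 and 26.2 CPM. For Orm1 they were 359 and 309, 590 and 716, 463 and 464, and 378 and 319. The median size of the log2 difference for Lcn2 was 0.17 within same-numbered pairs and 1.81 between livers of different numbers, for Orm2 0.38 and 1.67, for Saa1 0.52 and 1.63, for Saa3 0.44 and 1.25, and for Hp 0.07 and 0.37. It was smaller within same-numbered pairs in all 10 members. The labels do not say what a replicate number stands for. Blocking on the replicate number left the count of members called at 0, whether all 16 livers or the 8 of these groups were fitted. In the fit of the 8 alone, added after seeing the data, 4 members had an unadjusted p under 0.05, all lower in MDKO: Saa3 (−0.43), Saa2 (−0.44), Saa1 (−0.34) and Lcn2 (−0.21), each with an edgeR adjusted p of 0.9998. Saa3 was lower in MDKO in 4 of 4 pairs, by −0.61, −0.37, −0.22 and −0.51 on the log2 scale, and Saa2 by −1.21, −0.02, −0.39 and −0.73. Lcn2 differed by −0.54 to 0.02.

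**Figure D3:**
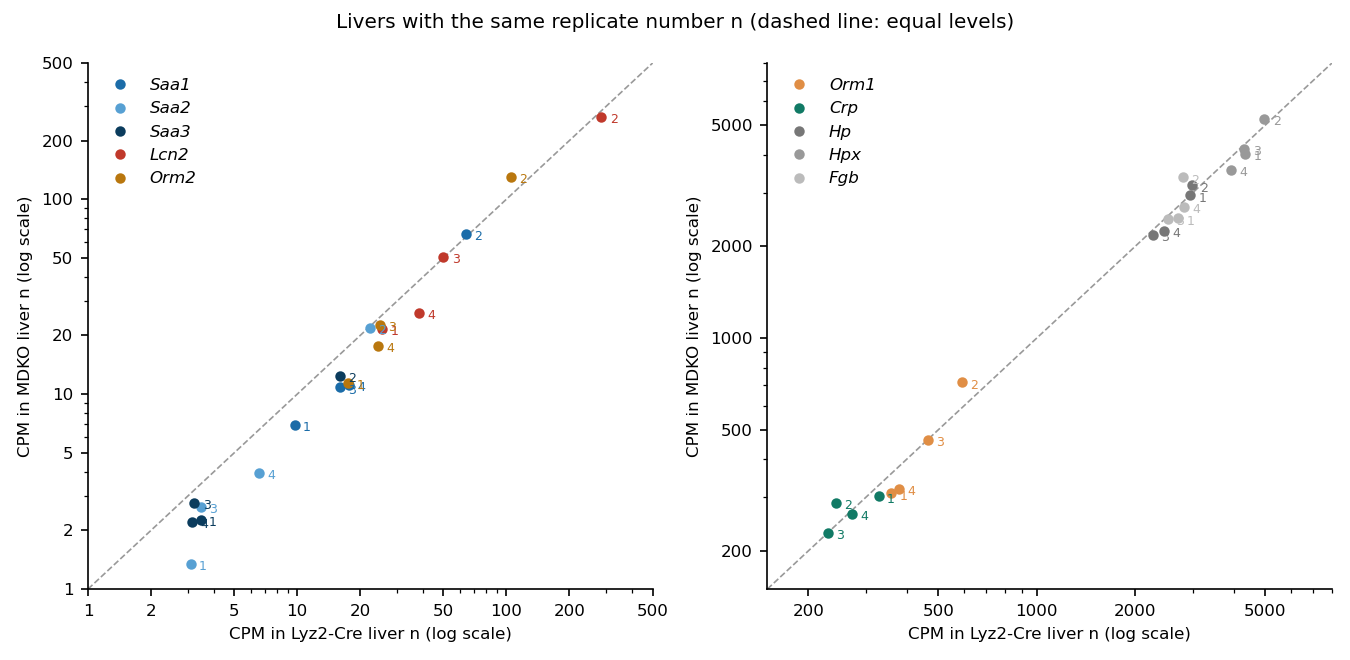
Each point is 1 gene in the Lyz2-Cre liver (horizontal axis) and the MDKO liver (vertical axis) of the same replicate number, in CPM on log axes; the dashed line marks equal levels. The points lie along the line over the whole range, and those of number 2 are the highest for Saa1, Saa2, Saa3, Lcn2, Orm1 and Orm2.

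In the main edgeR fit livers labelled MDKO differed in no called member from those labelled as single knockouts. Compared with NFATc3-MKO, 0 members were called by edgeR (7.35% of all genes were), 1 had an unadjusted p under 0.05, and DESeq2 called 0. Lcn2 stood at −1.03 ± 0.82 and Orm2 at −1.16 ± 0.75 on the log2 scale. Without MDKO replicate 2, Orm2 (−2.58, edgeR adjusted p = 0.0393) and Orm1 (−0.85, 0.0420) were called lower. With Lyz2-Cre replicate 2 left out as well, Lcn2 (−2.52, 0.00962) and Saa3 (−2.20, 0.0170) were called lower too. Compared with ASK1-MKO, 0 members were called by edgeR (7.72% of all genes were) and 3 had an unadjusted p under 0.05. Orm2 stood at 2.60 ± 0.80 (edgeR adjusted p = 0.0584, and 0.0174 with DESeq2, which called it), Lcn2 at 2.26 ± 0.86 (0.123) and Crp at −0.51 ± 0.19 (0.105). Crp was called lower with voom (−0.64, limma adjusted p = 0.00646) and without ASK1-MKO replicate 3 (−0.69, edgeR adjusted p = 0.0173). Without Lyz2-Cre replicate 2 and MDKO replicate 2, Orm2 stood at 1.16 (0.160) and Lcn2 at 0.76 (0.360). The interaction of the genotypes as labelled (the difference of MDKO from NFATc3-MKO less that of ASK1-MKO from controls) called no member and gave none an unadjusted p under 0.05, where 16.2% of all genes were called; DESeq2 also called none. The interaction was 1.35 ± 1.16 for Lcn2 and 1.36 ± 1.06 for Orm2, with intervals of −1.11 to 3.82 and −0.90 to 3.61. Both signs turned without Lyz2-Cre replicate 2 and MDKO replicate 2, to −1.55 for Lcn2 (edgeR adjusted p = 0.117) and −1.04 for Orm2 (0.300), as did those of Saa1 (−1.84, 0.0901) and Saa2 (−1.97, 0.135). Saa3 was then called at −2.53 (0.0182). Both livers left out were high in these genes, and both enter the interaction with a plus sign. Leaving them out lowers it by design, so these values are no separate evidence of an interaction.

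The cultures, labelled as macrophages, held almost no hepatocyte marker transcripts. In the ASK1-MKI set Saa3, the lowest member per kilobase in Lyz2-Cre livers, was the highest. Its controls held 15723 ± 621 CPM per kilobase of Saa3, 665 ± 19.6 of Lcn2, 206 ± 14.3 of Hp, 34.4 ± 2.06 of Orm1 and 5.70 ± 0.619 of Orm2, an order in which no neighbours overlapped. Saa1 had 28 counts over the 3 control cultures, Hpx 9, Saa2 2, Crp 1 and Fgb 0, the last allowing at most 0.0560 CPM. The members took 0.941% to 1.01% of all counts in the controls, nearly all of it Saa3.

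All 5 members that passed the filter fell in cultures labelled ASK1-MKI, where 49.1% of 11380 genes were called in either direction and the median over all genes was near 0. Saa3 was 8650, 8426 and 9102 CPM in the controls and 5476, 5452 and 5495 in ASK1-MKI (−0.67 ± 0.02 SE, edgeR adjusted p = 9.84e-50). Lcn2 was 607, 592 and 627 against 252, 259 and 250 CPM (−1.26 ± 0.02, 2.63e-85). Hp was 272, 261 and 298 against 144, 145 and 150 CPM (−0.92 ± 0.04, 3.09e-17), and Orm1 25.3, 26.2 and 28.4 against 13.1, 13.9 and 15.0 (−0.93 ± 0.08, 2.68e-21). Orm2 fell most on the log2 scale, from 3.99, 4.32 and 4.94 to 0.942, 1.10 and 0.596 CPM (−2.32 ± 0.23, 2.30e-16). No culture of one group overlapped the other in these 5 genes, as in 54.5% of all genes tested, and all 5 calls held in every alternative run. The cultures of a group differed little, with a biological coefficient of variation of 0.0185 to 0.0660 in these genes, so small differences pass the test here.

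The cytokines that drive the response were also lower in these cultures. Of 7 cytokine genes tested 6 fell and none rose: Il6 from 15.6 ± 0.996 to 0.425 ± 0.218 CPM (−5.19 ± 0.19, edgeR adjusted p = 1.22e-51), Il1b from 16.8 ± 0.229 to 6.37 ± 0.423 (−1.40 ± 0.10), Il1a (−0.55 ± 0.06) and Osm (−0.95 ± 0.13) among them. Of 17 signalling genes 8 fell and 4 rose. Jak2 fell from 258 ± 4.09 to 138 ± 3.27 CPM (−0.91 ± 0.03), Nfkbiz, a nuclear NF-kB cofactor needed for Lcn2 and Il6, by 0.88 ± 0.05, and Socs3 by 0.91 ± 0.07. Of 6 transcription factors Cebpb (57.9 ± 3.63 to 40.5 ± 2.70 CPM, −0.52 ± 0.05), Nr3c1 and Foxo1 fell and Cebpa rose (0.36 ± 0.03). Of 9 further positive genes tested 6 fell, with Mt1 at −1.81 ± 0.08 and ceruloplasmin (Cp) at −0.60 ± 0.05, and 2 rose, the complement genes Cfb (0.96 ± 0.09) and C3 (0.14 ± 0.02). The Fc receptor genes Fcgr1 (0.58 ± 0.02) and Fcgr2b (0.38 ± 0.02) were among 7 of 13 receptor and clearance genes that rose, and 4 fell, Tlr2 among them.

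Markers of other cells moved with these genes. The 11 neutrophil markers summed to 227 to 231 CPM in the controls and 159 to 164 in ASK1-MKI, and 5 of 6 tested fell. S100a8 was 75.1 ± 1.84 against 27.6 ± 0.634 CPM, S100a9 9.95 ± 0.331 against 1.03 ± 0.424, Mpo 7.24 ± 0.292 against 0.164 ± 0.193, Ngp 3.30 ± 0.188 against 0.140 ± 0.137 and Elane 3.43 ± 0.265 against 0.123 ± 0.126. Csf3r, the largest part of the sum, did not fall, at 128 ± 4.01 against 133 ± 2.54 CPM. Kupffer cell markers fell too, 3 of 3 tested, with sums of 879 to 903 CPM in the controls and 288 to 307 in ASK1-MKI. Ly6g was at 0 in all 3 controls. Of 10 macrophage markers 6 rose and 3 fell, and their sum was 34558 to 36886 against 36725 to 38691 CPM. The part of these markers' cells in the lower members was not tested.

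In the NFATc3-MKI set Lcn2 was the only member above 6 CPM. It was 150, 232 and 158 CPM in the controls and 319, 457 and 414 in cultures labelled NFATc3-MKI (1.14 ± 0.20 SE, edgeR adjusted p = 0.00482), with no overlap. Saa3 was 4.00, 5.81 and 3.77 against 3.34, 3.12 and 2.43 CPM (−0.61 ± 0.28, 0.0904). Of the 2 members tested 1 was thus called, where 33.3% of 13363 genes were and 45.8% did not overlap. Saa1, Saa2, Orm1, Crp and Fgb had no count in any of the 6 cultures, which allows at most 0.122 CPM in the controls and 0.114 CPM in NFATc3-MKI, each over the group's 3 libraries and for counting error only. Orm2, Hp and Hpx had 1 to 6 counts per group. S100a8, S100a9, Camp, Ltf and Ngp were at 0 in all 6, while Csf3r, the only neutrophil marker tested, rose from 8.79 ± 1.85 to 14.9 ± 1.47 CPM. Of 6 macrophage markers tested 5 rose. The part of these in Lcn2 was not tested.

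Cytokine genes rose with Lcn2 in these cultures. Of 6 tested 5 rose and none fell: Il6 from 0.490 ± 0.126 to 6.02 ± 1.21 CPM (3.59 ± 0.37, edgeR adjusted p = 8.19e-08), Il1b from 0.690 ± 0.0213 to 5.03 ± 0.764 (2.84 ± 0.35), Lif from 1.01 ± 0.582 to 5.50 ± 1.31 (2.42 ± 0.36) and Tnf from 266 ± 5.12 to 452 ± 31.3 (0.77 ± 0.08) among them. Il1rn, the interleukin-1 receptor antagonist and 1 of 4 further positive genes that rose of 6 tested, went from 20.3 ± 3.03 to 164 ± 25.6 CPM (3.01 ± 0.13). C3 fell (−0.74 ± 0.11). Socs3 rose from 73.4 ± 8.78 to 207 ± 32.1 CPM (1.49 ± 0.11), 1 of 3 signalling genes that rose of 16, while 4 fell, Tyk2 among them (−0.52 ± 0.09). Of 5 transcription factors Cebpb (0.46 ± 0.09), Cebpd (0.62 ± 0.12) and Cebpa (1.17 ± 0.23) rose and Nr3c1 fell (−0.43 ± 0.10).

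**Figure D4:**
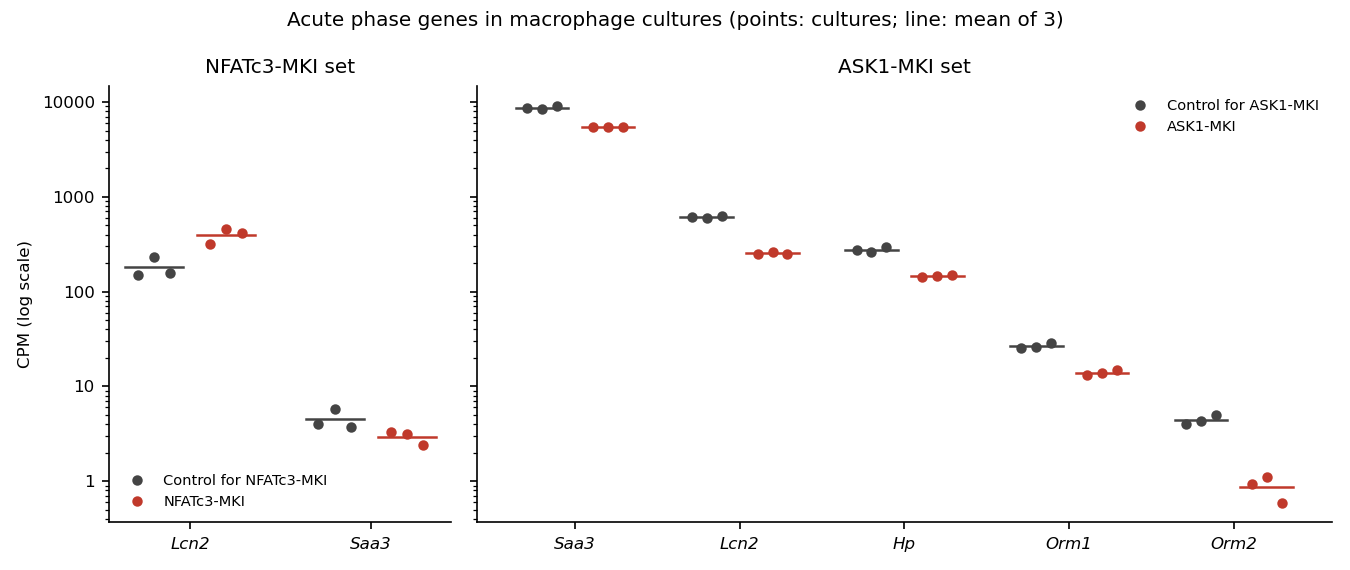
CPM on a log axis in each culture of the NFATc3-MKI set (left, the 2 members tested) and the ASK1-MKI set (right, the 5 members tested); points are cultures and lines are means of 3. Lcn2 is higher in NFATc3-MKI than in its controls, and all 5 members are lower in ASK1-MKI than in theirs.

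The control groups of the 2 sets carry the same genotype label but held very different amounts of these genes. Saa3 stood at 4.53 ± 1.12 CPM in the controls for NFATc3-MKI and 8726 ± 344 in those for ASK1-MKI, Lcn2 at 180 ± 45.4 and 609 ± 17.9, and Hp at 0.0392 ± 0.0680 and 277 ± 19.2. The 2 sets were deposited in separate tables, scaled separately and differ in the macrophage markers given above, so no test was made between them. Within each set the direction for Lcn2 followed that of Il6, Il1b and Socs3, up in NFATc3-MKI and down in ASK1-MKI. The livers labelled as knockouts had no called difference from Lyz2-Cre in Lcn2 in the main fit, and liver and culture values are not on one scale.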

How the data were processed

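Poly-A RNA libraries of 16 livers and 12 cultures were aligned with HISAT2 to mm10, per the submitters' processing notes. How reads were assigned to genes, and with which annotation or strand setting, is not given in the sources used here. Liver values, as deposited, are expected counts per gene symbol, and the authors' other 2 tables hold raw counts per Ensembl gene, with no normalisation found in any. Each table was fitted alone, the liver values rounded first, with filterByExpr, TMM scaling and edgeR's robust quasi-likelihood test (4.0.16 in R 4.3.3), adjusted by Benjamini-Hochberg over 13309, 13363 and 11380 genes, with calls at an adjusted p under 0.05. The fit was tested on simulated data. Levels are CPM, given as mean ± SD. Differences are log2 with the SE. Correlations used log2 CPM with a prior count of 2. Alternatives were DESeq2 (1.42.0), its size factors, limma voom (3.58.1), total counts alone, an adjusted p under 0.1, no filter, a filter at a mean of 1 CPM, the replicate block, fits to the compared groups alone, and leaving out each library. The leaving out of Lyz2-Cre replicate 2 and MDKO replicate 2 together, and the block within those groups alone, were chosen after seeing the data. Those livers were high in several members, so calls of members made without them are not independent of the choice. The members and lists were chosen with earlier results of these data known. All 10 members are named, with up to 4 genes of smallest p per list and comparison, or the most abundant where none passed, and the 3 genes most like each member. Some genes under this rule are not reported here.

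The labels give no pairing. Deviations from group means of same-numbered livers correlated across genes at 0.239 to 0.528 in the 4 pairs of MDKO and Lyz2-Cre, each liver best with its own number. The values printed are from the fit without a block, and blocked values for these groups are given beside theirs. Every other pair of groups had a correlation under 0.1 in at least 1 pair. The highest among them was 0.561, between Lyz2-Cre and NFATc3-MKO, where the lowest was −0.206. Of 4 Lyz2-Cre livers 3 were best with their own number in ASK1-MKO, at correlations of −0.02 to 0.164 over the 4 pairs. Libraries of a group differed by 1.59 to 1.99 times the sampling noise (chi-square per degree of freedom) in the ASK1-MKI set and more elsewhere. Each library counted once. These ratios cannot tell separate cultures from repeat libraries of 1 culture. Lyz2-Cre replicate 3 and MDKO replicate 3, livers of different groups, stood at 2.31, with the latter the shallowest liver. Limits for a count of 0 use a floor of 3 counts. Promoters are RefSeq's, searched with Python 3.11.15, and transcripts were aligned with Biopython 1.88.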

Additional observations from a re-analysis of the deposited data

Results flagged for a closer look

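In groups of 4 livers, a value was singled out where its gap to the nearest other liver passed Dixon's 95% critical value as a share of the group's range. For normally distributed values chance does this in about 1 of 20 groups. The values were CPM without a log scale, and skewed values can be singled out more often. In all 40 groups (10 genes in 4 liver groups) were examined, of which 10 gave such a liver. Lyz2-Cre replicate 2 stood apart for Saa1 (63.8 CPM, the others 9.73 to 17.7), Saa3 (16.0, the others 3.15 to 3.46), Orm2 (105.5, the others 17.5 to 24.8) and Lcn2 (284.7, the others 25.4 to 49.95). MDKO replicate 2 stood apart for the same genes, Saa1 (66.7 CPM, the others 6.98 to 11.2), Saa3 (12.4, the others 2.21 to 2.76), Orm2 (129.8, the others 11.4 to 22.6) and Lcn2 (264.8, the others 21.6 to 50.8), and for Saa2 (21.9, the others 1.34 to 3.95). ASK1-MKO replicate 1 stood apart for Orm2 (14.2 CPM, the others 4.70 to 6.08). The genes move together across livers, and same-numbered Lyz2-Cre and MDKO livers were alike, so these are not 10 independent events.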

How the results depend on the processing

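Counts of members called depend on a few livers and on the tool. For NFATc3-MKO against Lyz2-Cre (0) the count was 1 with the replicate block (Crp) and 4 with Lyz2-Cre and MDKO replicate 2 both left out. For ASK1-MKO against Lyz2-Cre (0) it was 2 with DESeq2, 1 with voom, 1 with the replicate block, 3 at an adjusted p under 0.1, and 0 to 1 with a single library left out. For NFATc3-MKO against ASK1-MKO (4) it was 2 to 4 with a single library left out, 3 with no filter and 5 without both. For MDKO against NFATc3-MKO (0) it was 1 with the replicate block, 0 to 2 with a single library left out and 4 without both. For MDKO against ASK1-MKO (0) it was 1 with each of DESeq2, voom, the replicate block and an adjusted p under 0.1, and 0 to 1 with a single library left out. The interaction (0) gave 1 without both (Saa3). For NFATc3-MKI (1) an adjusted p under 0.1 gave 2. MDKO against Lyz2-Cre stayed at 0 and ASK1-MKI at 5 in all alternatives run, the replicate block included, and no called value changed sign. The cause of these changes was not tested. The labels do not say what a shared replicate number stands for, so counts with the replicate block rest on an unknown pairing. In the NFATc3-MKI cultures 8 members, and in the ASK1-MKI cultures 5, had too few counts to test.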
